A study of Mus musculus with 8 samples.

Results

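In 4 deposited lists of open chromatin from mouse embryonic stem cells, 12180 regions lay away from the ends of protein-coding genes and were present in every list. They were selected on the lists themselves: overlapping intervals of the 4 lists on chromosomes 1 to 19 and X were merged into 94048 regions, a region counted as present in a list when it overlapped it by at least 1 bp, and regions within 1 kb of an annotated end of a RefSeq protein-coding gene were set aside. Presence in the lists is therefore what chose these regions, and it is described below, as are their scores and widths, with no test. The 12180 regions were 15.2% of the 80052 regions away from gene ends. At gene ends 8410 of 13996 regions, 60.1%, were in all 4 lists.

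ATAC-seq uses a transposase that cuts and tags accessible DNA, so that reads pile up where nucleosomes are few. The 4 groups were v6.5 embryonic stem cells depleted of Ubc9 by 72 hours of doxycycline in a TET-OFF system, control v6.5 cells, H1 triple-knockout cells (H1.2-/-H1.3-/-H1.4-/-) and H1 wild-type cells. Ubc9 is the enzyme that conjugates the small protein SUMO to its targets, and H1 proteins are linker histones that bind DNA between nucleosomes. All cells had been kept in 2i/LIF for 4 passages, 50000 cells went into each reaction and libraries had 12 PCR cycles. Doxycycline is given in the labels for the depletion only, so the drug and the depletion cannot be told apart, and the H1 lines were taken from another study. Each group had 2 replicates but 1 list, and no source used here says how they were combined, so there is no spread between replicates, and none of the differences below has a test.

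Open regions away from promoters are often enhancers, sites where transcription factors bind and act on a gene at a distance, or sites bound by the insulator protein CTCF. In embryonic stem cells enhancers bound by Oct4, Sox2 and Nanog lie around the genes of the pluripotency network. Open regions inside a gene can also be starts of shorter transcripts or of non-coding RNAs. The lists carry no factor binding, so none of these kinds is assigned here, and positions are compared with the RefSeq annotation only (GRCm38.p6, the same coordinate system as mm10).

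Sequence could be read where a region covered an annotated start that is not an outer end of a protein-coding gene. Such starts were internal ones of protein-coding genes (909 of 1400 promoter windows) or starts of lncRNAs (491), which can be outer ends of their own genes. RefSeq lists more than 1 start for many genes, and 1126 of the 12180 regions overlapped a promoter window, the 250 bases before and 50 bases after such a start. That is 9.25% (exact 95% interval 8.74 to 9.77, counting error only), against 1.58% of the other regions away from gene ends and 2.74% of all regions away from gene ends. The share was 1.11% for regions in 1 list, 2.02% in 2 lists and 2.56% in 3 lists. The rise thus came mainly between 3 and 4 lists, but it depends on which list is missing. Of the regions in 3 lists 70.3% were missing from the depleted list and had 1.57%. Those missing another list had between 3.29% and 5.98%. Of the 1126 regions 842 lay inside protein-coding genes and 284 outside.

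The 4 sequences that follow are RefSeq promoter windows that lie whole inside such regions, read 5′ to 3′ on the gene's strand, with CG dinucleotides in capitals. They differ in base composition, and windows richer in GC exist. Mesd, a chaperone of LDL-receptor family proteins, has its window at chr7:83892016-83892315 (plus strand), in the region over a promoter window with the highest lowest percentile, 99.83. Ptprs, a receptor tyrosine phosphatase, has an internal start at chr17:56462172-56462471 (minus strand). Mir22hg, the host RNA of miR-22, starts at chr11:75461289-75461588 (plus strand), and Gm51018, a lncRNA, starts at chr3:127544839-127545138 (plus strand), just before the miR-302 hairpins. The last 2 were chosen after their values were seen.
Mesd: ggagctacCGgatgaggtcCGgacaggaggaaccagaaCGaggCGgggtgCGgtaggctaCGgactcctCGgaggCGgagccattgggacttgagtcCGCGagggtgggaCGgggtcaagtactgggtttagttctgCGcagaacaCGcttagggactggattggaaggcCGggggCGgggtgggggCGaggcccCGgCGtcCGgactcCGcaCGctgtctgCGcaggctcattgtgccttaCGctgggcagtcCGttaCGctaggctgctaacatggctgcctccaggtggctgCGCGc
Ptprs: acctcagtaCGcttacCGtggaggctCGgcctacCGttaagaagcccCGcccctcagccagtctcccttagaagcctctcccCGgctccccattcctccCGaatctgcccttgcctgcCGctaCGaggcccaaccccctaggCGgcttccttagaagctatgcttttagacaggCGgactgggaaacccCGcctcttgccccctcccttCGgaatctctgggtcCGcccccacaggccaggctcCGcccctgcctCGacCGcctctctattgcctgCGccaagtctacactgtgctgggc
Mir22hg: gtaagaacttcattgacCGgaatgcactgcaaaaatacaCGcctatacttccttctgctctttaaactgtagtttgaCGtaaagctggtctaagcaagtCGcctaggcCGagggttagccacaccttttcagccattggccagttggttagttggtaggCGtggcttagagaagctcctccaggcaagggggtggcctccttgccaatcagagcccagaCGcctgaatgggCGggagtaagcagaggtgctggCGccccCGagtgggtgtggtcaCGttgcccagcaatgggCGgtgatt
Gm51018: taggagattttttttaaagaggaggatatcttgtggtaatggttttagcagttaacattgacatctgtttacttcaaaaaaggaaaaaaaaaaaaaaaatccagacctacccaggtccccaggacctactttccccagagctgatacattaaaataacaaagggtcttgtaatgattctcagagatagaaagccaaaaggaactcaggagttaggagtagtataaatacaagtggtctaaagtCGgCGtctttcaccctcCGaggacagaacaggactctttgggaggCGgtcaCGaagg

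Mesd's window holds 27 CG dinucleotides in 300 bases at 66.3% GC, that of Ptprs 18 at 64.3%, that of Mir22hg 12 at 54.7% and that of Gm51018 5 at 40.3%. GGGCGG, the core of the GC box, was found on either strand in the first 3, CCAAT in those of Mesd and Mir22hg, and TATAAA in that of Gm51018 only. Matches of different motifs may share bases at their ends, and a match is a description of the sequence, not a bound site. Most windows in these regions were rich in CG. The median ratio of observed to expected CG was 0.691 over 1400 windows of 1188 genes, and 61.4% reached 0.6. Among 10922 windows away from gene ends that lay in no region of any list the median was 0.214, and 5.51% reached 0.6. Of these 10922 windows 8813 were of lncRNAs, against 491 of the 1400, and the part of gene type was not tested. Between them stood the 1318 windows away from gene ends in another region, with a median of 0.467 and 37.0% at 0.6 or above. In the constant regions at gene ends the median was 0.81. GGGCGG was in 60.0% of the 1400 windows, against 9.59% of the windows in no region and 35.9% of all 32619 windows. CCAAT was in 41.0%, 35.5% and 37.6% of the same classes, and TATAAA in 6.57%, 17.3% and 13.7%. The windows in these regions and those in no region were far apart in CG content and in GGGCGG, and close in CCAAT. In GGGCGG the windows in another region lay between, at 41.8%.

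A second set of sequences marks microRNA clusters beside these regions. MicroRNAs are short RNAs that pair with messenger RNAs through their seed, bases 2 to 8, given in capitals, and those that share a seed can share targets. The mature forms of the clusters miR-302 to 367, miR-17 to 92 and miR-106a to 363 have many seeds, of which 3 are shown. AAAGUGC and AUUGCAC recur across clusters, AAGUGCU only within miR-302 to 367, and other recurring seeds are left out. The clusters were chosen after their values were seen. Members of these families are abundant in embryonic stem cells or in dividing cells.
miR-302b-3p: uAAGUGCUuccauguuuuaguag
miR-302d-3p: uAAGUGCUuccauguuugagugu
miR-17-5p: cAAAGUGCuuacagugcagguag
miR-20a-5p: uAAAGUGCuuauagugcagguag
miR-106a-5p: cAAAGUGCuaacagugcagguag
miR-20b-5p: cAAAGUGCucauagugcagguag
miR-367-3p: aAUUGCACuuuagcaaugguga
miR-92a-3p: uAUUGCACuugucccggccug
miR-363-3p: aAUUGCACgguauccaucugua

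The seed AAGUGCU is shared by miR-302b-3p and miR-302d-3p, AAAGUGC by miR-17-5p, miR-20a-5p, miR-106a-5p and miR-20b-5p, and AUUGCAC by miR-367-3p, miR-92a-3p and miR-363-3p. At the miR-302 cluster the region chr3:127544627-127545224 ended 3 bp before the hairpin of Mir302b, inside Larp7, and held the start of Gm51018 printed above. Its score, the authors' own value for the peak, was 201.2 in the Ubc9-depleted list, 399.6 in the Ubc9-control list, 733.2 in the H1 triple-knockout list and 405.7 in the H1 wild-type list. Scores rank peaks within a list, so each was also turned into a percentile of its list, with 100 for the highest score. The percentiles were 71.0 in the depleted list, 92.9 in the control list, 98.7 in the triple-knockout list and 92.2 in the wild-type list, high in all 4 and lowest in the depleted one. At the miR-17 to 92 cluster the region chr14:115040272-115042721 ended 0.949 kb before Mir17, and its percentiles were 84.1 in depleted, 84.0 in control, 74.7 in triple-knockout and 78.3 in wild-type cells. At the related cluster on the X chromosome a region 1.79 kb before Mir106a, over the start of the lncRNA Kis2, stood at 32.5, 20.2, 45.1 and 32.8 in the same order. The autosomal clusters thus had regions in the upper part of every list and the X-linked one had lower ranks in each.

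Of 1005 microRNA hairpin genes, 81 (8.06%) had such a region within 5 kb, 66 distinct regions in all. By comparison 15.1% had a constant gene-end region and 47.9% any region of any list within that distance. The 8 hairpins whose nearby region stood highest by its lowest percentile were Mir6380, Mir7655, Mir6402, Mir22, Mir6540, Mir210, Mir5124a and Mir5619. At Mir22 the region held the start of Mir22hg and scored 405.7 in depleted, 520.3 in control, 428.3 in triple-knockout and 419.9 in wild-type cells, at percentile 90.9 or above in every list. Mir210, a microRNA induced when oxygen is low, lay 94 bp from a region that scored 389.9, 404.6, 378.8 and 362.0 in the same order, between percentiles 90 and 93.1. Both were among the 8 picked by lowest percentile, so their high rank in every list follows from that choice.

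Where these regions covered an internal start, the outer start of the same gene had no region in any list more often than at genes at large. Among 751 protein-coding genes with such a region at an annotated start, the outermost start in the table had a constant region for 155 (20.6%), a region of fewer lists for 125 (16.6%) and none for 471 (62.7%). Over all 17274 protein-coding genes with a promoter window the shares were 42.8%, 16.6% and 40.6%. The rule set aside every region that reached an outer end, and the 17274 genes were not limited to those with an internal start. The sets thus differ by selection, and how much of the difference comes from it was not tested. Esyt2, a protein that tethers the endoplasmic reticulum to the plasma membrane, had no region at its outer start, and its internal start was in a region at percentile 99.79 or above in all 4 lists. At Ptprs the outer start had a region in fewer lists. Mesd and Lrif1, a nuclear protein that binds HP1, had constant regions at both starts. Mesd's internal region scored 1220 in depleted, 1274 in control, 1245 in triple-knockout and 1260 in wild-type cells, and that of Lrif1 1045, 1296, 1660 and 1580 in the same order. The region over the lncRNA 1700028E10Rik had a lowest percentile of 99.4. A region over both the lncRNA 6430590A07Rik and the protein-coding gene Abhd18 had 99.45, and the lists cannot tell which start it belongs to.

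A larger share of these regions than of the others lay at non-coding genes. A window of 1 kb around an end of a lncRNA gene was overlapped by 895 regions, 7.35%, against 3.598% of the other regions away from gene ends. A tRNA gene was overlapped by 76 regions (0.624%, interval 0.492 to 0.780), against 0.105% of the others. Of 408 tRNA genes 119 (29.2%) lay in such a region, 43 in a constant gene-end region, 98 in a region of fewer lists and 148 in none. Transfer RNAs are transcribed by RNA polymerase III from promoters inside the gene, and near-identical copies exist, whose reads may not be told apart.

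**Figure D1:**
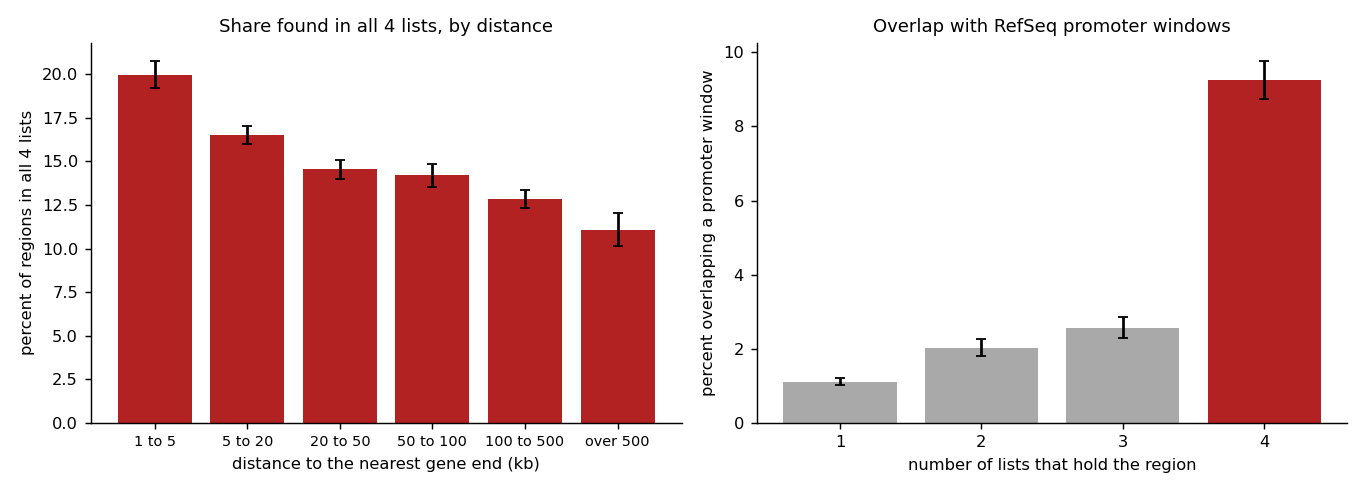
Left, percent of regions away from gene ends that were in all 4 lists (y axis) by distance to the nearest protein-coding gene end in kb (x axis). Right, percent of regions away from gene ends that overlapped a RefSeq promoter window (y axis) by the number of lists that held them (x axis). Bars are shares and error bars exact 95% binomial intervals. The constant share is 19.99% at 1 to 5 kb and 11.1% beyond 500 kb, and the promoter share is 9.25% in regions of all 4 lists and 2.56% in those of 3.

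The regions were spread along and between genes. Of the 12180, 5305 (43.6%) lay inside protein-coding genes and 6875 (56.4%, interval 55.6 to 57.3) outside, against 40.02% inside and 59.98% outside for the other regions away from gene ends. The median distance to a gene end was 23.6 kb (quartiles 7.76 and 75.5), against 31.9 kb for the others. As the plot by distance shows, constant regions were 19.99% of all regions 1 to 5 kb from a gene end, 16.5% from 5 to 20 kb, 14.6% from 20 to 50 kb, 14.2% from 50 to 100 kb, 12.8% from 100 to 500 kb and 11.1% beyond. By chromosome the share ran between 12.9% on X and 18.1% on chromosome 11.

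Regions just beyond the edge of the gene-end window had median percentiles close to those just within it. The 397 regions up to 1500 bp from an end had median percentiles of 62.0 in depleted, 70.5 in control, 70.2 in triple-knockout and 70.0 in wild-type cells. The 430 constant regions set aside at more than 500 and up to 1000 bp stood at 65.6, 69.0, 70.1 and 73.1 in the same order. The closest regions kept lay 1001 bp from Pla2g1b and from Ky, with lowest percentiles of 20.05 and 21.6, and the closest left out 1000 bp from Plekhg3 and 999 bp from Ackr3, with lowest percentiles of 9.62 and 87.8. At the other edge of the rule stood the 12386 regions of exactly 3 lists. Of these 8704 (70.3%) were missing from the depleted list, 1125 from the control list, 1121 from the triple-knockout list and 1436 from the wild-type list. The depleted list thus set most of the boundary of the 12180 regions, and asking for the other 3 lists only gave 20932 regions, 6.02% of them over a promoter window. Regions missing from it overlapped a promoter window in 1.57% of cases, against 3.29%, 5.98% and 5.29% of those missing from the control, triple-knockout and wild-type lists.

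How much of a region the 4 lists had in common is a description, since overlap chose the regions. The merged regions had a median width of 515 bp (quartiles 380 and 748) and covered 7.48 Mb. A median of 268 bp (quartiles 204 and 369) was common to all 4 lists, 56.8% of the width. Only 97 of 12180 regions had no base common to all 4, and 12129 had at least 100 bp in each list. The regions held 25.3% of the intervals of the depleted list, 26.2% of the control list, 23.3% of the triple-knockout list and 24.2% of the wild-type list.

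Scores of these regions stood between those of gene ends and those of regions found in fewer lists, and lower in the depleted list than in the others. Their median percentile was 53.3 in the depleted list, 70.8 in the control list, 73.0 in the triple-knockout list and 72.1 in the wild-type list. Constant regions at gene ends stood at 84.2, 80.9, 81.8 and 81.5 in the same order, and other regions away from gene ends at 37.9, 31.6, 35.7 and 36.4. In the depleted list the gap between the regions described here and gene ends was therefore the widest of the 4 lists. The depleted list held the lowest of a region's 4 percentiles for 6845 regions, 56.2%. In that list 17.9% of the regions were in the top 20% of all intervals and 15.1% in the bottom 20%, against 34.8% and 5.02% in the control list. A percentile also depends on which other intervals a list holds, and how much that adds was not tested.

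**Figure D2:**
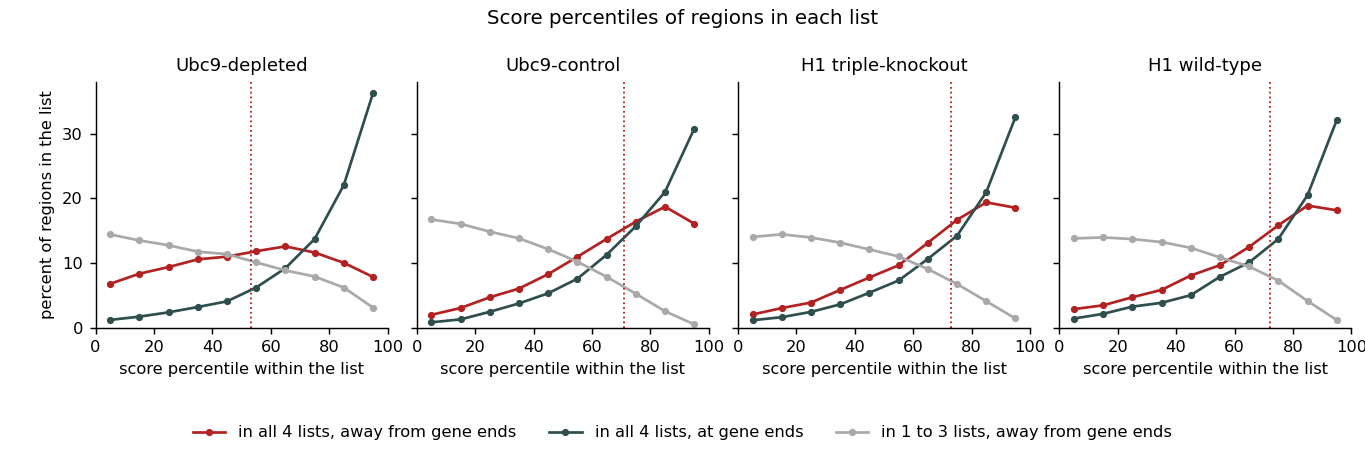
Percent of regions in a list (y axis) by their score percentile within that list in steps of 10 (x axis), 1 panel per list, for regions in all 4 lists away from gene ends (red; the dotted line is their median), regions in all 4 lists at gene ends (dark) and regions in 1 to 3 lists away from gene ends (grey). The red median stands at 53.3 in the Ubc9-depleted panel and between 70.8 and 73.0 in the other 3.

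The low ranks in the depleted list were not shared by the regions over promoter windows. These stood at 77.3 in the depleted list, 77.9 in the control list, 80.1 in the triple-knockout list and 79.4 in the wild-type list. The 11054 regions without a promoter window stood at 51.1, 70.0, 72.3 and 71.3 in the same order. Inside genes the regions without a promoter window stood at 48.2 in depleted cells and 68.5 in control cells, and outside genes at 52.9 and 71.0. The 76 regions with a tRNA gene went the other way within the Ubc9 pair, with 69.9 in depleted and 38.3 in control cells, while the H1 pair had 66.3 in triple-knockout and 61.3 in wild-type cells. Of the tRNA regions the 3 highest by lowest percentile lay nearest to Atp10a, Trim55 and Gm52512. The one near Trim55 scored 980.8 in depleted, 438.0 in control, 815.4 in triple-knockout and 677.7 in wild-type cells, while the one near Atp10a scored 513.2, 554.8, 694.6 and 520.4, with its highest percentile in the triple-knockout list.

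Across the 12180 regions the order of scores was most alike between the H1 lists. Spearman's rho was 0.694 between triple-knockout and wild-type, 0.646 between triple-knockout and Ubc9-control, 0.673 between wild-type and Ubc9-control, 0.552 between depleted and control, 0.474 between depleted and triple-knockout and 0.442 between depleted and wild-type. Every pair that included the depleted list was below every pair that did not. These are descriptions across regions, which are not independent replicates, and all 4 lists are of the same cell type and caller. Ranked among the 12180, 1120 regions were in the top 25% of all 4 lists and 557 in the bottom 25% of all 4.

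A few regions ranked high in 1 list and low in the other 3, or the reverse. For the depleted list 51 regions were in the top 25% of the set there and the bottom 25% elsewhere, and 35 the reverse. The counts were 1 and 7 for the control list, 8 and 3 for the triple-knockout list and 5 and 2 for the wild-type list. Of the 51 regions 12 overlapped a promoter window and of the 35 regions 1 did, beside 9.25% of all 12180 regions. The strongest of the 51, chosen after their values were seen, lay nearest to Dcdc2a and to Cyp4a32. The first scored 569.8 in depleted, 68.0 in control, 100.2 in triple-knockout and 73.5 in wild-type cells. The second scored 424.6, 79.7, 105.1 and 69.5 in the same order. Among the clearest of the 35 was a region nearest to Arpp21, with 53.3 in depleted, 338.4 in control, 492.7 in triple-knockout and 685.5 in wild-type cells. Another lay nearest to Kcnh7, a potassium channel gene, with 58.9, 524.9, 422.9 and 359.1 in the same order. Such regions are in the set because presence alone was asked for.

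Widths moved little within either pair. The width of a region in the depleted list over that in the control list had a median of 0.959 (quartiles 0.794 and 1.14), and in the H1 pair the triple-knockout over the wild-type width had a median of 0.983 (0.832 and 1.16). At least 1.5 times wider in depleted cells were 924 regions (7.59%), below the 13% of all regions shared by the pair, and at least 1.5 times narrower were 1525 (12.52%), above the 9.07% of all. In the H1 pair 878 (7.21%) were wider in triple-knockout cells and 1191 (9.78%) narrower, near the 7.52% and 10.8% of all shared regions. Constant gene-end regions had a median ratio of 1.09 for the Ubc9 lists and 0.956 for the H1 lists. The 4407 other regions away from gene ends that the Ubc9 lists shared had a median ratio of 1.10, and 18.6% of them were wider and 7.81% narrower in depleted cells. Of these kinds the constant regions away from gene ends thus had the only median below 1 in the Ubc9 pair.

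The kinds of region differed in this measure too. Regions over promoter windows had a median width ratio of 1.04 in the Ubc9 pair and those without one 0.951. Regions with a tRNA gene had 1.25 (quartiles 1.03 and 1.64), and 36.8% of these 76 were at least 1.5 times wider in depleted cells, against the 13% of all regions shared by the pair. With a score of at least 100 in each list, 37 of these regions remained and 21.6% were that much wider. In the H1 pair they had a median of 1.05. The tRNA regions were thus wider and ranked higher in depleted than in control cells, which was noticed after their values were seen. Constant gene-end regions did so too, with a smaller difference in each measure.

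**Figure D3:**
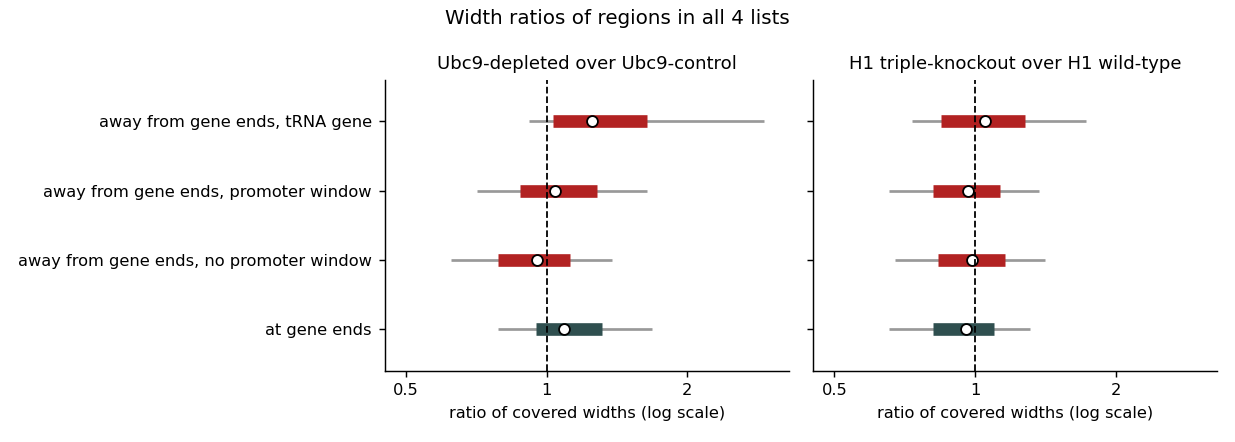
Ratio of covered widths (x axis, log scale) within the Ubc9 pair (left) and the H1 pair (right) for regions in all 4 lists: away from gene ends with a tRNA gene (76 regions), with a promoter window (1126) or without one (11054), and at gene ends (8410). Circles are medians, thick bars quartiles and thin bars the 10th to 90th percentiles of regions. Regions with a tRNA gene have a median of 1.25 in the Ubc9 pair, and those without a promoter window 0.951.

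Changes of width in both pairs were counted for these regions only. Of the 12180 regions, 110 were wider and 257 narrower in both perturbed lists. Another 114 were wider in depleted and narrower in triple-knockout cells, and 123 the reverse. The same counts over all regions were not taken, so these are not read as a trait of the set. Whether any is more than the separate counts of the pairs would give was not tested. The widest by ratio in the Ubc9 pair were nearest to AU018091 (2509 bp in depleted and 283 bp in control cells), Chil4 (2388 and 296 bp), Pabpc6 (1578 and 221 bp), Abca13 (1164 and 166 bp) and Zdhhc13 (994 and 183 bp). The narrowest were nearest to Aig1 (253 bp in depleted and 1677 bp in control cells), Notch1 (283 and 1809 bp), Pawr (210 and 1136 bp), Adgrl3 (250 and 1333 bp) and Adcyap1 (205 and 1088 bp). Notch1 encodes a receptor of cell-to-cell signalling, and its region lay inside the gene, 1.18 kb from an end. In the H1 pair the widest were nearest to Gm21190 (582 bp in triple-knockout and 120 bp in wild-type cells), En1 (1141 and 264 bp), Abt1 (1060 and 258 bp), Aco1 (572 and 146 bp) and Chil4 (670 and 182 bp). The narrowest there were nearest to Tnni1 (108 bp in triple-knockout and 907 bp in wild-type cells), Palld (204 and 1107 bp), Cd93 (173 and 820 bp), Hdac9 (153 and 721 bp) and Vegfa (147 and 677 bp). Most of these were low-ranking regions in at least 1 list, and the one near Chil4 was among the 5 widest of both pairs.

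The highest-scoring regions were not typical of the set. The 5 regions with a score of 3100 in all 4 lists lay nearest to Col19a1, Galc, Myo3a, Lrrc4c and Rpusd4, and the next were nearest to Pex2, Esp38 and Zc3h7a. The region chr1:24611455-24616237 near Col19a1 was 4783 bp wide and held the pseudogenes Gm10222 and Gm10925. The region chr17:39842881-39848997 near Esp38 was 6117 bp wide and held the lncRNA AY036118 and Rn18s-rs5, a pseudogene of 18S ribosomal RNA. The one near Lrrc4c, chr2:98666119-98667502, lay 1034 kb from the nearest end of a protein-coding gene. Sequences with many copies draw reads from all of them, and no source used here says whether reads with several matches were kept, so these scores are not read as openness of a single site.

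A larger share of pluripotency genes than of all genes had these regions nearby. Of 28 core and naive pluripotency genes, 23 (82.1%, interval 63.1 to 93.9) had at least 1 in the gene or within 50 kb, against 53.5% of all 21631 protein-coding genes. The 23 genes drew on 68 distinct regions, with median percentiles of 41.6 in the depleted list, 64.9 in the control list, 70.1 in the triple-knockout list and 67.7 in the wild-type list. The genes with most regions were Nanog and Esrrb with 7 each, Tet2 with 6 and Dppa3 with 5. Nanog and Dppa3 are neighbours on chromosome 6, so their counts share regions. The all-gene median was 1 and the highest count 13. For the label of the cells, 64.3% of the pluripotency genes also had a constant region at an end. The share was 10.0% of 20 fibroblast and feeder genes and 43.7% of all genes. It was higher in the heterochromatin (86.4%), housekeeping (85.7%), SUMO (78.95%), architecture (73.7%) and signalling lists (73.1%). Neural genes had 50.0%, and the remaining lists stood below all genes. A high share is thus not particular to pluripotency genes.

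Nanog, a homeobox factor of the naive state, had 13 regions within 150 kb. The one 4.64 kb upstream, chr6:122702313-122703383, scored 567.2 in depleted, 737.5 in control, 1148 in triple-knockout and 1008 in wild-type cells, at percentile 96.1 or above in every list. Another at chr6:122810571-122811640, 96.5 kb downstream and nearest to Slc2a3, scored 624.7, 702.6, 1321 and 1349 in the same order. By percentile they stood at 96.1 and 97.1 in the depleted list and at 98.9 and 98.6 in the control list, so that both were near the top of each list. The region 17.1 kb upstream was at percentile 52.0 in the triple-knockout list and 4.91 in the wild-type list, so regions around 1 gene did not rank alike.

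Pou5f1, which encodes Oct4, had a region with its midpoint 1.94 kb upstream, chr17:35503807-35504369. It scored 225.8 in depleted, 205.0 in control, 171.0 in triple-knockout and 203.7 in wild-type cells, at percentiles 75.1, 74.5, 61.5 and 71.8 of these lists. Sox2, the partner of Oct4, had 1 region 16.2 kb downstream with scores of 226.3, 327.4, 279.0 and 335.8 in the same order. It had 3 more at 92.9, 104.3 and 108.4 kb downstream, those at 104.3 and 108.4 kb in a stretch known in mouse as the Sox2 control region. The region at 92.9 kb scored 256.4 in depleted, 392.0 in control, 541.5 in triple-knockout and 345.1 in wild-type cells, and that at 108.4 kb scored 265.2, 256.2, 415.5 and 321.6. Both had their highest percentile in the triple-knockout list and were at percentile 79.3 or above in every list, while the one between them reached only percentile 26.98 in wild-type cells.

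**Figure D4:**
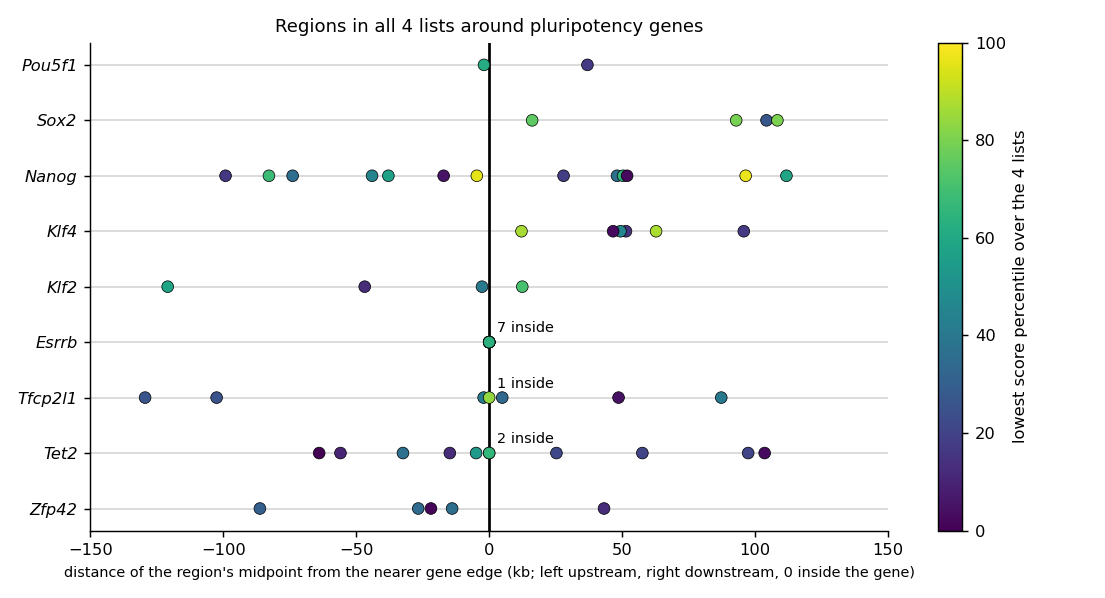
Regions in all 4 lists around 9 pluripotency genes, picked from those with an annotated strand, of which others with regions are not drawn. The x axis is the distance in kb of the region's midpoint from the nearer gene edge, upstream to the left and downstream to the right, with regions inside the gene at 0 and their number printed. The colour is the lowest score percentile over the 4 lists. Nanog has 13 regions within 150 kb on both sides, all 4 of Sox2 lie downstream, and all 7 of Esrrb lie inside the gene.

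Klf4, a Krüppel-like factor, had 6 regions within 150 kb, all of them downstream. The nearest, at 12.2 kb, scored 442.5 in depleted, 303.5 in control, 536.3 in triple-knockout and 451.2 in wild-type cells, and the one at 62.8 kb scored 341.6, 401.0, 534.2 and 543.7. Between them lay regions at 46.6, 49.4 and 51.5 kb whose lowest percentiles were 2.85, 46.3 and 14.7. The regions at 12.2 and 62.8 kb thus ranked high in every list and the 3 in between did not. Esrrb, an orphan nuclear receptor, had all 7 regions inside the gene. The strongest, chr12:86501486-86502398, scored 493.9 in depleted, 295.4 in control, 232.2 in triple-knockout and 234.3 in wild-type cells, and had its highest percentile, 94.3, in the depleted list. The other 6 scored between 69.6 and 186.3 in that list.

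Tfcp2l1, a factor that sustains self-renewal, had a region inside the gene at chr1:118647579-118648520 with scores of 300.3 in depleted, 624.6 in control, 627.5 in triple-knockout and 566.8 in wild-type cells. Another, 4.92 kb downstream, scored 98.8, 383.3, 634.2 and 231.0, so that it was at percentile 33.4 in the depleted list. Tet2, an enzyme that oxidises methylated cytosine, had its strongest region inside the gene, with scores of 476.7, 731.8, 650.0 and 817.5 in the same order. At these 3 regions the depleted list held the lowest score percentile. Zfp42, also called Rex1, differed: its region 13.9 kb upstream scored 797.3 in depleted, 748.9 in control, 274.8 in triple-knockout and 104.1 in wild-type cells, at percentiles 98.8, 98.9, 81.7 and 36.1 of these lists. Zfp42 lies on chromosome 8, and the counts were also recomputed without chromosomes 3, 6 and 8. The part of the chromosome in the scores of single regions on these chromosomes, those near Sox2, Nanog and miR-302 included, was not tested.

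Other lists of genes are given by counts, beside the 53.5% of all protein-coding genes. The architecture and linker histone list had 15 of 19 genes with a region in the gene or within 50 kb (78.9%), led by Stag1, a cohesin subunit, with 5, and by Rad21, also of cohesin, and Wapl, which releases cohesin, with 4 each. H1f0, the replacement linker histone, had 2. The SUMO pathway had 13 of 19 (68.4%), with Senp7, a protease that trims SUMO chains, at 6, Ranbp2 at 3 and Zmiz1 at 2. Heterochromatin regulators had 15 of 22 (68.2%), led by Atf7ip, a partner of the methyltransferase Setdb1, with 6, Morc3 with 4, and the DNA methyltransferase Dnmt1 and the HP1 protein Cbx5 with 3 each. Housekeeping genes had 22 of 28 (78.6%), led by Actb with 4, and Emc7, Ywhaz and Rab7 had 3 each. The intervals of the SUMO and heterochromatin lists include the share of all genes, and those of the architecture and housekeeping lists lie just above it. Within 10 kb the housekeeping share was 25.0% and the SUMO share 21.05%, both below the 26.9% of all genes.

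Signalling and lineage lists were more mixed. Genes of LIF, Wnt, BMP and FGF signalling had 15 of 26 (57.7%), led by the BMP receptor Bmpr1a with 5, the FGF antagonist Spry2 and the Wnt target Axin2 with 4 each, and Lef1 with 4. Formative and primed genes had 14 of 19 (73.7%), led by Etv5 with 5 and Lef1 with 4, and Lefty2 and Otx2 had 3 each. Trophectoderm genes had 12 of 16 (75%), with 4 each at Tead4, Tfap2c and Tfap2a and 2 at Lgals3, and neural genes 15 of 20 (75%), with 3 each at Nes, Neurog2 and Nkx2-2 and 2 at Tubb3. Such regions were thus also found near genes of lineages other than that of the labelled cells. Primitive endoderm had 11 of 20 (55.0%), with 3 each at Lama1 and Dab2 and 2 each at Lamc1 and Sparc.

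Below the share of all genes stood the 2-cell stage with 11 of 23 (47.8%), mesoderm and gastrulation with 8 of 20 (40%), and germline and fibroblast genes with 7 of 20 each (35.0%). Their intervals all include 53.5%, the germline and fibroblast ones reaching 59.2. Of the 2-cell genes, which mark the embryo when its genome is first transcribed, Tdpoz1 and Gm2016 had 2 regions each and Zscan4f and Zscan4c 1 each, in clusters of near-identical copies. Gsc, a mesoderm homeobox gene, had 3, Msgn1 and Hand2 2 each and Gata4 1. The oocyte gene Zp3 had 3, Ddx4 2, and Mael and Dpep3 1 each, and of fibroblast genes Fn1 and Col1a1 had 3 and Col3a1 and Tbx15 2. Within 10 kb the fibroblast share was 30.0%, above the 26.9% of all genes. Hox genes had 24 of 39 (61.5%), but their clusters drew on only 4 distinct regions, and Hoxc9, Hoxc10, Hoxc11 and Hoxc12 all counted the same one, nearest to Hoxc13. Gene length differed between lists, with medians of 9.90 kb for pluripotency genes, 37.0 kb for fibroblast genes and 17.3 kb for all genes, and its part in these counts was not tested.

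**Figure D5:**
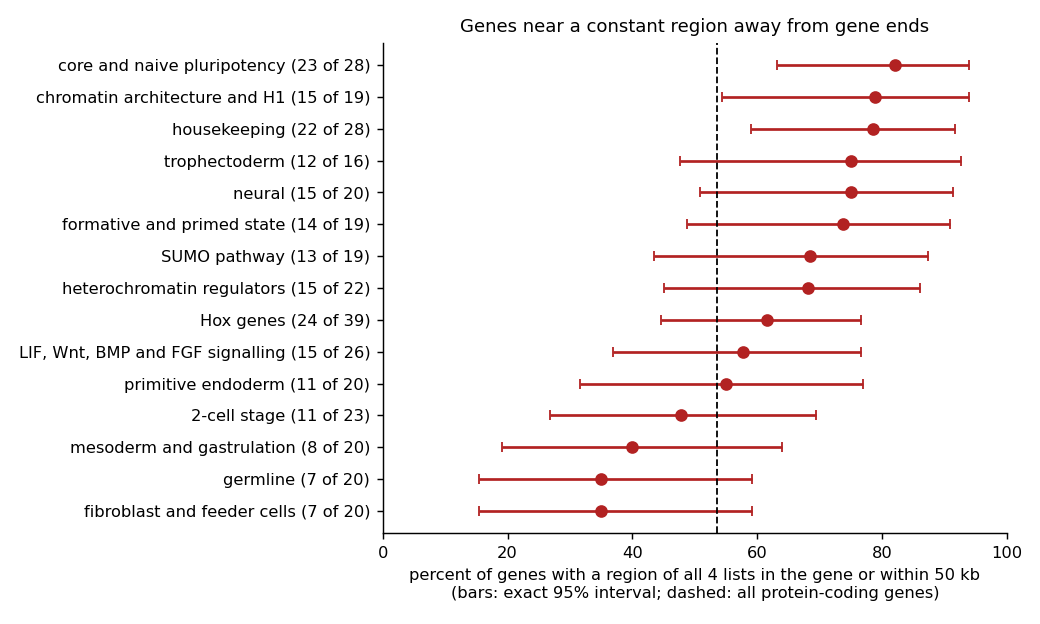
Percent of the genes of each list with a region of all 4 lists in the gene or within 50 kb (x axis), for 15 gene lists (y axis, with counts). Points are shares, bars exact 95% binomial intervals and the dashed line all protein-coding genes. At this distance pluripotency genes stand highest at 82.1% and germline and fibroblast genes lowest at 35.0%, an order that differs at 10 and 100 kb.

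By nearest gene the regions were thinly spread. They were nearest to 6817 genes, 4169 of which had 1 region and 350 had 5 or more. Most had Tbl1xr1 as the nearest gene, with 16, followed by Cntnap2, Gpc5 and Pcmtd1 with 15 each, Ccdc85a and Gm15319 with 14, and Cdh8 and Cntnap5a with 13. Tbl1xr1 encodes a subunit of the NCoR corepressor, and only 3 of its 16 regions lay inside it, the median distance being 213.3 kb. Their median percentiles were 75.9 in depleted, 89.3 in control, 88.8 in triple-knockout and 90.4 in wild-type cells, above those of the whole set in each list. At Cntnap2, a neuronal adhesion gene 2241 kb long, 11 of the 15 were inside.

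Clusters were uncommon. When regions at most 0.0125 Mb apart were joined, 9596 (78.8%) stood alone, 1182 runs held 2 or more and 32 held 4 or more. The median gap to the next region was 103.2 kb. The longest run had 9 regions in 47.7 kb near Gm40363 and Pdia4 on chromosome 6, with median percentiles of 76.6 in depleted, 88.7 in control, 78.5 in triple-knockout and 81.3 in wild-type cells. Next came 7 near Mreg and Pecr on chromosome 1, 6 each near Mid1 on X and near Eapp and Snx6 on chromosome 12, and 5 each near Zfp213 on chromosome 17 and Olfr1324 on X. The run near Eapp and Snx6 ranked high in all lists, with medians of 85.2, 75.1, 89.3 and 86.7, and the run near Olfr1324 ranked low in all, with 23.6, 23.8, 32.0 and 19.5. The pluripotency genes with most regions were not among these runs.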

How the data were processed

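ATAC-seq was done on 8 samples of 4 groups, and each group of 2 replicates has 1 deposited list. No source used here says how the replicates were combined. Per the submitters' processing notes reads were handled with CASAVA 1.8.2, Picard and Bowtie2 on build mm10 and peaks with MACS 1.4.2-1. Their settings and any shift of reads for the transposase are not given in the sources used here. Each interval has a score that the authors deposited, at least 50, read as minus 10 times log10 of p and used only within a list. Read depth is unknown, and deeper libraries yield more peaks.

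Intervals were merged and set against RefSeq genes, promoter windows and microRNAs (GRCm38.p6) with Python 3.11.15, numpy 2.4.6, pandas 2.3.3 and scipy 1.17.1. Where a list had several intervals in a region the highest score was kept, and its percentile is its rank in the list. Widths are the bases a list covers, compared within a pair with a fold of 1.5. The overlap steps were tested on simulated data. Intervals of shares are exact (Clopper-Pearson) at 95% and cover counting error only.

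The members and the 15 gene lists (345 genes, 341 matched) were chosen with earlier results of these data known. Genes named are up to 4 per gene list by number of nearby regions, the 8 highest regions by lowest percentile, the 8 genes with most nearest regions, the 5 largest width ratios per direction and pair, the 8 highest microRNA regions, those at the window's edge and the 6 longest runs. Regions around the pluripotency genes were listed to 150 kb. Any other was chosen after its values were seen, and 1 gene that this rule names is not reported here. Chromosome Y and unplaced scaffolds were set aside, and no genome sequence was used.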

Additional observations from a re-analysis of the deposited data

Results flagged for a closer look

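Intervals on chromosome Y and on unplaced scaffolds were outside the comparisons. They formed 604 merged regions, of which 65 were in all 4 lists, 35 of these on Y. The lists held 443 such intervals in Ubc9-depleted, 225 in Ubc9-control, 150 in H1 triple-knockout and 232 in H1 wild-type cells. They stand out only as signal in data that the report does not use, and since the lists have no untreated input beside them, no level of background can be given.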

How the results depend on the processing

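No paired analysis was possible because each group has 1 list for its 2 replicates, and for the same reason no replicate could be left out. With a score of at least 100 in each list, 7073 regions remained in place of 12180; 464 were wider and 700 narrower in depleted cells, 387 wider and 589 narrower in triple-knockout cells, 12.4% overlapped a promoter window, and 60.7% of pluripotency genes had a region within 50 kb, against 38.4% of all genes. Without the Ubc9-depleted list, the other 3 lists shared 20932 regions; 54.51% lay outside genes, 6.02% overlapped a promoter window, and 1558 were wider and 2139 narrower in triple-knockout cells. With 2 times in place of 1.5, 340 were wider and 564 narrower in depleted cells, and 231 wider and 389 narrower in triple-knockout cells. The shares of wider and narrower regions among all regions of a pair were not recomputed at any of these settings. Whether the contrast with all regions of a pair holds there was thus not tested. With a gene-end window of 2.5 kb, 58.4% lay outside genes and 7.75% overlapped a promoter window; with the ends of all annotated genes the shares were 54.5% and 6.31%. The promoter share was 9.80% with equal numbers of top-scoring intervals and 8.71% without the Ubc9-control list, and all alternatives for this share were chosen after the data were seen. The other 62 recomputed counts and shares of these results stayed within 1.5 times the count or within the share's interval. Within 10 kb in place of 50 kb, 42.9% of pluripotency genes and 26.9% of all genes had a region. Above the pluripotency genes stood signalling (53.85%), trophectoderm (50.0%) and heterochromatin (45.45%), while Hox (17.95%), SUMO (21.05%) and housekeeping genes (25.0%) were below all genes, fibroblast genes (30.0%) above them, and 2-cell genes lowest (4.35%). Within 100 kb the share was 85.7% of pluripotency and 70.75% of all genes; Hox (97.44%), housekeeping (92.86%), architecture (89.47%) and trophectoderm genes (87.5%) stood higher, and signalling genes (65.38%) were below all genes. Read depth limits every list to an unknown degree.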
